A study of Mus musculus with 6 samples.

Results

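The genes described here are 10 chaperones, folding enzymes and stress-response genes of the endoplasmic reticulum (ER), chosen by name: Hspa5, Hsp90b1, Calr, Canx, Pdia3, Pdia4, Pdia6, Dnajb9, Sdf2l1 and Herpud1. They are 10 of the 21899 genes listed in the table, and all 10 were among the 10853 genes whose mean reached 1 FPKM and which entered the tests. FPKM is a fragment count scaled by the length of the transcript and the depth of the library. Differences between samples in the make-up of their RNA are not corrected by it, and results with other scalings are given below. RNA sequencing was done on 6 samples of tumors grown from LLC-luc cells, a mouse Lewis lung carcinoma line carrying luciferase. The cells had been placed under the skin of adult male C57BL/6 mice that weighed 18 to 20 g. The 3 groups held 2 samples each and all received the laser. Laser was light without phycocyanin, and by the study's methods these mice received an equal volume of saline. PC-La was light with phycocyanin, the light-absorbing protein of Spirulina platensis, and SePC-La was light with phycocyanin from selenium-enriched Spirulina. According to the labels, the proteins were injected once in 5 days and the 620 nm laser was applied for 10 min, 4 h after an injection; the study's methods give a different wavelength and interval. No sample without light, and none with an injected protein but no light, was analysed here. The age of the mice in weeks is not given in the sources used here, nor whether the 2 samples of a group came from separate animals, so each p-value measures only the spread between these samples.

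Proteins that are to be secreted or placed in membranes fold in the ER with the help of chaperones, and their glycan chains and disulfide bonds are made there. When unfolded proteins accumulate, the sensors IRE1, PERK and ATF6 start the unfolded protein response (UPR). ATF6 and the XBP1 factor made through IRE1 raise transcription of chaperone and degradation genes, while PERK slows translation and leads to the factor ATF4. Light-activated sensitizers that damage the ER are a known trigger of this response, and calreticulin that reaches the surface of a dying cell is a known signal to phagocytes.

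The ER stress response element (ERSE) is the promoter sequence through which ATF6, with NF-Y, is known to act. It consists of CCAAT and CCACG with 9 bases between them. All 10 genes matched an entry of the RefSeq promoter table (GRCm38.p6), and the 250 bases before each start were searched on both strands. An exact ERSE was found in 5 of the 10 windows, those of Hspa5, Hsp90b1, Calr, Canx and Pdia6, against 37 of 32851 windows of the same length in the whole table (0.113%). The window of Hsp90b1 held 2. The related ERSE-II, in which ATTGG and CCACG are separated by 1 base, was found in the window of Herpud1 and in 0.0304% of all windows. The core TGACGTGG of the UPR element was found in none of the 10 and in 0.563% of all windows. A match describes letters only. The lines below show the matches with 20 bases on each side, on the strand of the gene, because these are the letters the genes share. Dnajb9, Pdia3, Pdia4 and Sdf2l1 had no match. Of these only Dnajb9 is shown, chosen after its values were seen to differ most between groups. Whether a match goes with the level of a gene was not tested. Capitals mark the ERSE, or the ERSE-II in Herpud1.
Hspa5, chr2:34772005-34772063, plus strand: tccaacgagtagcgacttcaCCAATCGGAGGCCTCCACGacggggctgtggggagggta
Hsp90b1, chr10:86705513-86705676, minus strand: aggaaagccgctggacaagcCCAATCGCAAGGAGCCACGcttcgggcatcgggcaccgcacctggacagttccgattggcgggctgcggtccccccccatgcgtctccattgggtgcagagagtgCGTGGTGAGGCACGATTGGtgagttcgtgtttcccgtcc
Calr, chr8:84847055-84847113, minus strand: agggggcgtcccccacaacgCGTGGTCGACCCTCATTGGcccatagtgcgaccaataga
Canx, chr11:50325780-50325838, minus strand: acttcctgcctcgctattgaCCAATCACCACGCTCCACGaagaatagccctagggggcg
Pdia6, chr12:17266471-17266529, plus strand: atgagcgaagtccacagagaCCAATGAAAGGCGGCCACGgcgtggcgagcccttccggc
Herpud1, chr8:94386357-94386407, plus strand: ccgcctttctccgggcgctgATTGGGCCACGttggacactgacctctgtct
Dnajb9, chr12:44210069-44210188, minus strand: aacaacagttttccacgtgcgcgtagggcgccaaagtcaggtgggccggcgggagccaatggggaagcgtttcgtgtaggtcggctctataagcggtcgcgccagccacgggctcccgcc
In Hspa5 the ERSE lay between 65 and 47 bases before the annotated start, and in Calr, where it reads on the other strand, between 162 and 144 bases before it. A CCAAT box alone was present in all 10 windows and in 33.8% of windows overall. It was searched after the ERSE results were seen and is itself part of ERSE and ERSE-II.

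Depth and the levels of markers of other cell types differed between the samples, and their part in the values of the 10 genes was not tested. The totals of reads recovered from the FPKM values were 14447792 to 17649490 per sample, and the 10 genes had between 463 and 17823 reads each. Taken at the lowest count of each gene, the counting error was 0.821 to 4.65%. The Laser samples were less alike (Pearson correlation across genes of log2 values 0.946) than the SePC-La (0.972) or PC-La samples (0.992). The summed FPKM of 7 skeletal muscle markers was 158 in Laser replicate 2, against 22.4 in Laser replicate 1 and 1.70 to 7.19 in the other 4 samples. The summed FPKM of 7 fibroblast markers was 1243 and 288 (Laser), 1717 and 1568 (PC-La) and 122 and 634 (SePC-La). Neutrophil markers (7 genes) summed to 164 and 42.3, 157 and 92.1, and 344 and 466 in the same order, and erythroid markers (5 genes) to 127 and 13.6, 263 and 361, and 613 and 932. Macrophage markers (7 genes) summed to 641 and 686 (Laser), 881 and 936 (PC-La) and 372 and 708 (SePC-La). For SePC-La vs PC-La, 4 of the 7 were lower at an unadjusted p under 0.05 (C1qa, C1qb, C1qc and Csf1r), where 14.4% of tested genes were. Cd68 and Mrc1 had positive log2 fold changes (0.31 and 0.28). Endothelial (6 genes) and T cell markers (6 genes) summed to at most 30.2 and 12.2. Of the markers of plasma cells, which are rich in ER, 4 of 6 were in the table, 1 reached a mean of 1 FPKM and their sum was at most 2.91. None of 6 lung epithelial markers reached a mean of 1 FPKM, their sum was at most 0.613, and 2 were at 0 in all samples. In a bulk sample, fewer cells of a type and less RNA per cell cannot be told apart.

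All 10 genes were well expressed in every sample, and none differed between groups by an absolute log2 fold change over 1. Ordered by their mean over the 6 samples, Pdia3 came first at 260 FPKM, the 125th of the tested genes, followed by Hspa5 at 239, Calr at 204, Pdia6 at 166, Hsp90b1 at 155, Canx at 141 and Pdia4 at 103. Sdf2l1 at 32.2, Herpud1 at 23.7 and Dnajb9 at 16.8 FPKM formed a lower tier. Of the 9 neighbouring pairs in this order, 5 held their order in all 6 samples. Pdia3 and Hspa5, and Pdia6 and Hsp90b1, were in order in 4 samples only, and Calr and Pdia6, and Hsp90b1 and Canx, in 5. The 10 genes together took 0.494 and 0.395% of all reads (Laser), 0.486 and 0.534% (PC-La) and 0.453 and 0.467% (SePC-La).

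**Figure D1:**
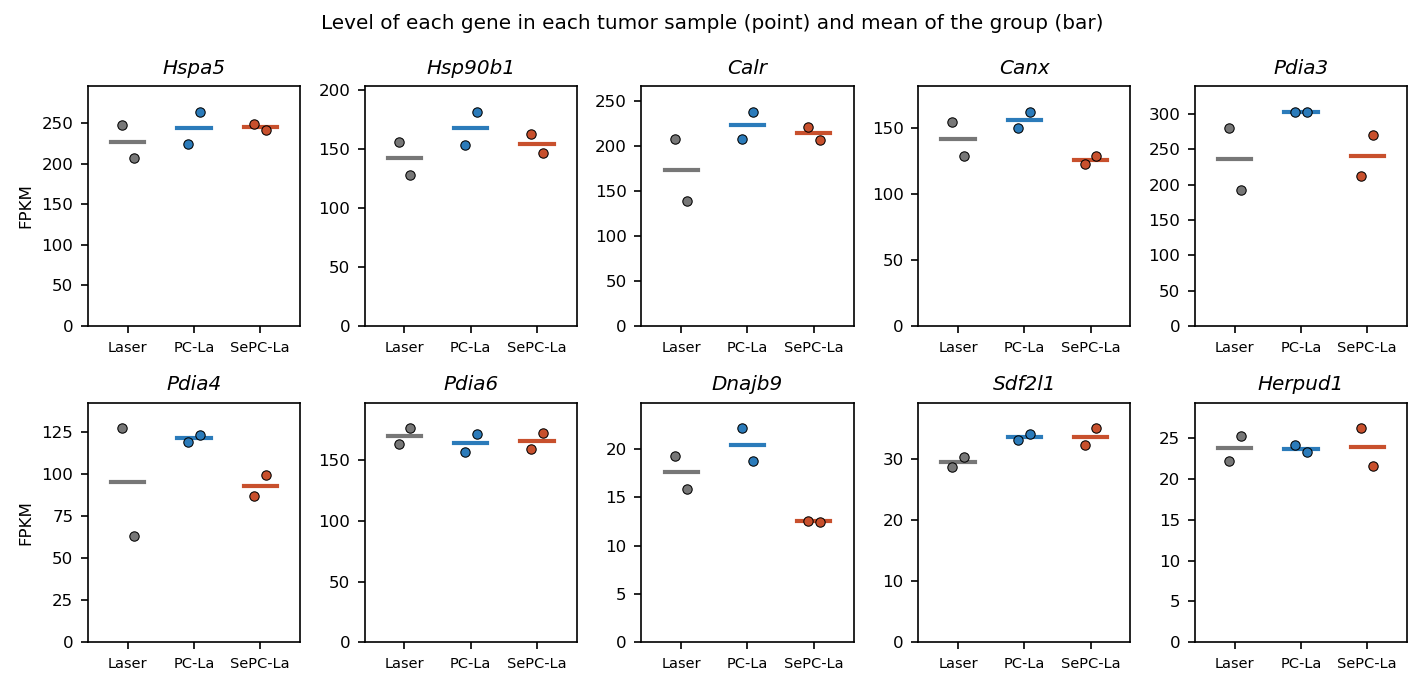
FPKM (vertical axes, from 0) of the 10 genes in the 2 tumor samples of each group (points) with the mean of the group (bars). Laser replicate 2 is the lowest point for Hspa5, Hsp90b1, Calr, Pdia3 and Pdia4, and Dnajb9 is the gene whose SePC-La points lie lowest relative to the other groups.

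Hspa5 encodes BiP, the ER Hsp70 that binds unfolded chains and holds the UPR sensors inactive. Adjusted p-values are Benjamini-Hochberg values over all tested genes, and a difference is said to pass where its unadjusted p was under 0.05, which Hspa5 did in no comparison. Its level was 248 and 207 FPKM (Laser), 224 and 264 (PC-La) and 249 and 241 (SePC-La). The groups overlapped, and the highest value was 1.28 times the lowest. The log2 fold change, taken on log2(FPKM + 1) with limma throughout, was 0.11 for PC-La vs Laser (95% interval -0.26 to 0.47, adjusted p = 0.843), 0.12 for SePC-La vs Laser (-0.25 to 0.48, adjusted p = 0.754) and 0.01 for SePC-La vs PC-La (-0.35 to 0.37, adjusted p = 0.972). Hsp90b1 encodes GRP94, the ER Hsp90, which folds integrins and Toll-like receptors among others. It measured 156 and 128 FPKM (Laser), 154 and 182 (PC-La) and 163 and 147 (SePC-La). These groups overlapped as well, with log2 fold changes of 0.24 (adjusted p = 0.755), 0.13 (adjusted p = 0.746) and -0.11 (adjusted p = 0.675) in the same order.

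Calr and Canx encode the lectin chaperones calreticulin, which is soluble, and calnexin, which is anchored in the membrane; both hold newly made glycoproteins. Calr measured 208 and 139 FPKM (Laser), 208 and 238 (PC-La) and 221 and 207 (SePC-La). A single sample, Laser replicate 2, lay apart from the other 5, which spanned 207 to 238 FPKM. Calr had log2 fold changes of 0.39 for PC-La vs Laser (SE 0.21, adjusted p = 0.753) and 0.33 for SePC-La vs Laser (SE 0.21, adjusted p = 0.527), and -0.05 for SePC-La vs PC-La (adjusted p = 0.883). Without Laser replicate 1, so that only replicate 2 stood for the group, the first was 0.68 and the second 0.63. Without Laser replicate 2 the first was 0.10. Canx measured 155 and 129 FPKM (Laser), 151 and 163 (PC-La) and 123 and 129 (SePC-La). Its SePC-La values were the lowest pair, below both PC-La values and, by a narrow margin, both Laser values. The Canx log2 fold change for SePC-La vs PC-La was -0.31 (SE 0.14, 95% interval -0.65 to 0.02, adjusted p = 0.224), for SePC-La vs Laser -0.17 (adjusted p = 0.628) and for PC-La vs Laser 0.15 (adjusted p = 0.788). Against PC-La, Canx passed at an unadjusted p under 0.05 when only those 4 samples entered the fit (-0.31) and after quantile normalization (-0.38). Of the 10853 tested genes, 3624 passed in the first of these fits and 2396 in the second, in either direction.

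Pdia3, Pdia4 and Pdia6 encode protein disulfide isomerases, which form and rearrange disulfide bonds; Pdia3 (ERp57) works with calnexin and calreticulin and in the loading of MHC class I. Pdia3 measured 279 and 192 FPKM (Laser), 303 and 302 (PC-La) and 212 and 270 (SePC-La). Both PC-La values were above all others, but the spread of the other groups was wide, and the log2 fold changes were 0.38 for PC-La vs Laser (SE 0.21, adjusted p = 0.753), 0.04 for SePC-La vs Laser (adjusted p = 0.944) and -0.34 for SePC-La vs PC-La (SE 0.21, adjusted p = 0.347). Without Laser replicate 1, Pdia3 was higher in PC-La by 0.65, while without Laser replicate 2 the value was 0.11. Pdia4 measured 127 and 63.5 FPKM (Laser), 119 and 124 (PC-La) and 86.9 and 99.4 (SePC-La). The Laser replicates of Pdia4 lay at opposite ends of the 6 values, 2.01 times apart, and SePC-La lay below PC-La without overlap. Its log2 fold changes were 0.43 for PC-La vs Laser (SE 0.31, adjusted p = 0.763), 0.05 for SePC-La vs Laser (SE 0.31, adjusted p = 0.963) and -0.38 for SePC-La vs PC-La (SE 0.31, adjusted p = 0.462). The last had an unadjusted p under 0.05 when only those 4 samples entered the fit, as 3624 of 10853 tested genes had. For Pdia4 the 2 Laser samples decided the direction: against Laser replicate 2 alone PC-La was higher by 0.92 and SePC-La by 0.54, while against replicate 1 alone the values were -0.07 and -0.45. These fits held 1 Laser sample, so they did not measure the spread within Laser, where the 2 Pdia4 values were 2.01 times apart. The 3 samples with the least Pdia4 were also the 3 with the lowest fibroblast marker sums, which were 288, 122 and 634 FPKM against 1243 to 1717 in the others, and the part of fibroblast content in the Pdia4 values was not tested. Pdia6, which also dampens IRE1 signalling, measured 163 and 176 FPKM (Laser), 156 and 171 (PC-La) and 159 and 172 (SePC-La). It was steadier across the samples than the other 9 genes, with an SD of 0.07 on the log2 scale that only 2.25% of tested genes undercut, and its log2 fold changes were -0.05, -0.04 and 0.02, with 95% intervals within -0.35 to 0.32.

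Dnajb9 was the gene of the set that differed most between groups: it was lower in SePC-La than in both other groups. Dnajb9 encodes ERdj4, an ER J-domain cochaperone of BiP that assists degradation and represses IRE1, and it is a known XBP1 target. It measured 19.3 and 15.9 FPKM in Laser (17.6 ± 2.39, SD, n = 2), 22.1 and 18.7 in PC-La (20.4 ± 2.42, SD, n = 2) and 12.6 and 12.4 in SePC-La (12.5 ± 0.0872, SD, n = 2). Both SePC-La values were below all 4 others, and the Laser and PC-La values overlapped. Dnajb9 had a log2 fold change of -0.66 for SePC-La vs PC-La (SE 0.15, 95% interval -1.02 to -0.31, adjusted p = 0.126) and of -0.45 for SePC-La vs Laser (SE 0.15, 95% interval -0.81 to -0.10, adjusted p = 0.382); for PC-La vs Laser it was 0.21 (SE 0.15, adjusted p = 0.762). The first 2 differences had an unadjusted p under 0.05, but neither an adjusted p under 0.05 over the 10853 genes. Of all tested genes, 14.4% were lower at that unadjusted threshold for SePC-La vs PC-La and 7.24% for SePC-La vs Laser. Groups were apart downward for 39.5% and 25.6% of them. Leaving out 1 sample at a time kept the Dnajb9 difference from PC-La between -0.78 and -0.55, at an unadjusted p under 0.05 each time. The difference from Laser did not pass without Laser replicate 1 (-0.32), SePC-La replicate 1 (-0.46) or SePC-La replicate 2 (-0.45). Sdf2l1, a partner of the ERdj3 cochaperone of BiP, measured 28.6 and 30.3 FPKM (Laser), 33.0 and 34.1 (PC-La) and 32.2 and 35.0 (SePC-La). Both treated groups lay above Laser without overlap, at a log2 fold change of 0.18 each (SE 0.12, adjusted p = 0.753 and 0.529), and between PC-La and SePC-La it was 0.00 (95% interval -0.28 to 0.28).

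Herpud1 encodes HERP, a membrane protein of the ER that organizes the HRD1 ubiquitin ligase complex for ER-associated degradation. It measured 22.2 and 25.3 FPKM (Laser), 24.2 and 23.2 (PC-La) and 26.2 and 21.5 (SePC-La). The SePC-La values enclosed the others. The group means were 23.7, 23.7 and 23.8 FPKM, with log2 fold changes of 0.00 in all 3 comparisons and 95% intervals within -0.34 to 0.35.

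**Figure D2:**
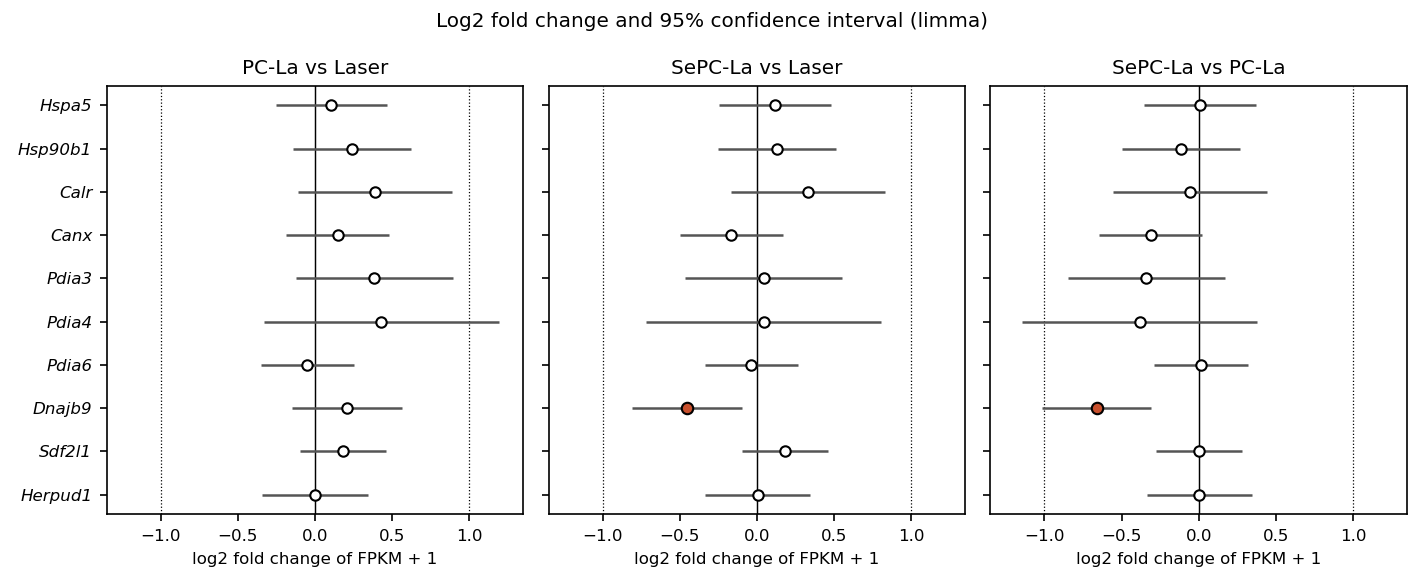
Log2 fold change of FPKM + 1 (horizontal axes) of each gene in the 3 comparisons, with 95% confidence intervals from limma; filled points have an unadjusted p under 0.05 and dotted lines mark a log2 fold change of 1. Dnajb9 is filled in both SePC-La comparisons, at -0.45 and -0.66, and the Pdia4 intervals are the widest.

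Taking the 10 genes by comparison, none met the study's criterion, an absolute log2 fold change over 1 with an unadjusted p under 0.05, which 1.29% of tested genes met for PC-La vs Laser, 0.682% for SePC-La vs Laser and 2.98% for SePC-La vs PC-La. An adjusted p under 0.05 was reached by none of the 10 and by 0% of tested genes in each comparison, the smallest over all genes being 0.406, 0.376 and 0.0649 in limma; at an unadjusted p under 0.05 there were 627, 1318 and 2637 genes. For PC-La vs Laser, 9 of the 10 genes had a positive log2 fold change, with a median of 0.19 where all tested genes had -0.00 (0.31 without Laser replicate 1 and 0.08 without Laser replicate 2), but no gene of the set had an unadjusted p under 0.05 (3.38% of tested genes did upward and 2.4% downward). The groups did not overlap for 2 genes upward (Pdia3 and Sdf2l1; 20.4% of tested genes) and none downward (21.6%). For SePC-La vs Laser, 7 were positive, the median was 0.04 against -0.06 for all genes (-0.10 after quantile normalization), and 1 gene was lower at an unadjusted p under 0.05 (7.24%) and none higher (4.9%). Groups were apart for Sdf2l1 upward (15%) and for Canx and Dnajb9 downward (25.6%). For SePC-La vs PC-La, 4 were positive, the median was -0.08 against -0.07, and 1 gene was lower at an unadjusted p under 0.05 (14.4%) and none higher (9.91%). Groups were apart for Canx, Pdia3, Pdia4 and Dnajb9 downward (39.5%) and for none upward (26%). No count of genes past the threshold or with groups apart exceeded the share among all tested genes by more than 1 gene. The share of all tested genes with a positive log2 fold change was not computed. The 3 comparisons share their samples pairwise and are not independent.

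The values also differed between the samples of a group. Expressed as log2(FPKM + 1) minus the mean of the gene over the 6 samples, the 10 genes averaged 0.07 and -0.22 (Laser), 0.09 and 0.16 (PC-La) and -0.07 and -0.04 (SePC-La). Laser replicate 2 was the lowest sample for 5 of the 10, where 18.7% of tested genes had their lowest value. PC-La replicate 2 was the highest sample for 4 (14.7% of tested genes). The median absolute log2 gap between replicates was 0.26 in Laser and 0.12 in each of the other groups. The SD over the 6 samples ran from 0.07 for Pdia6 through 0.10 for Herpud1, 0.11 for Sdf2l1 and 0.13 for Hspa5 to 0.32 for Dnajb9 and 0.38 for Pdia4, with a median of 0.17 where the tested genes had 0.20. Pdia6, Sdf2l1, Herpud1 and Dnajb9 did not follow the dip of the other 6 genes to the same depth in Laser replicate 2; their deviations there were 0.08, -0.08, 0.09 and -0.05, against -0.12 to -0.65 in the others.

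**Figure D3:**
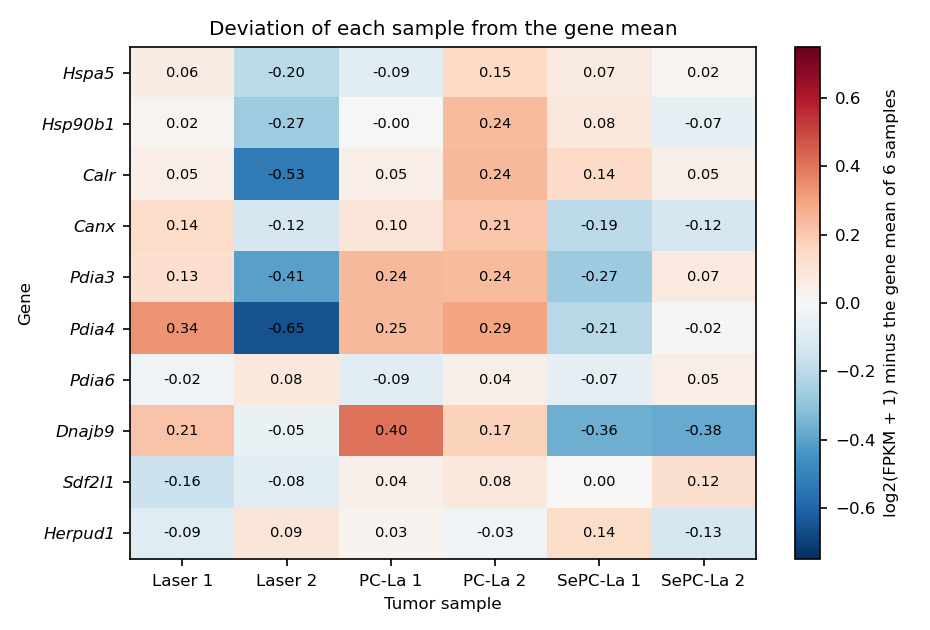
Deviation of log2(FPKM + 1) of each gene (rows) in each tumor sample (columns) from its mean over the 6 samples, as color and printed value. Laser replicate 2 holds the lowest values of the set, -0.65 for Pdia4 and -0.53 for Calr, and Dnajb9 is at -0.36 and -0.38 in SePC-La.

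Among the 7480 other genes whose mean reached 5 FPKM, the 4 closest to the average profile of the 10 genes were Lman2, Ckap4, Csnk1a1 and Furin. Closeness was the root mean square difference of the centred log2 values over the 6 samples, which was 0.0236 for Lman2, 0.0306 for Ckap4, 0.0317 for Csnk1a1 and 0.0328 for Furin, where the median gene had 0.218. The 10 genes themselves lay farther from their average than these 4, from 0.0799 for Canx to 0.241 for Dnajb9. Dnajb9 and Pdia4 (0.234) lay farther from it than the median gene, so the average does not stand for each of the 10. Lman2 is a cargo receptor for glycoproteins leaving the ER, Ckap4 a membrane protein of ER sheets and Furin a protease of the Golgi that cleaves secreted precursors. Csnk1a1, also among the 4, encodes a protein kinase. Lman2 measured 33.9 and 28.2 FPKM (Laser), 33.4 and 35.6 (PC-La) and 30.8 and 31.5 (SePC-La). Of these 4 genes, 3 stayed among the closest 4 with a pseudocount of 0.1, 3 with median-ratio scaling and 0 with quantile normalization.

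Of 9 sensors and transcription factors of the UPR, 2 were lower at an unadjusted p under 0.05 for SePC-La vs Laser, where 7.24% of tested genes were, and 4 for SePC-La vs PC-La, where 14.4% were. None was higher in these comparisons, and none passed in either direction for PC-La vs Laser, though 2 were higher and 1 lower without Laser replicate 1. The medians were 0.12, -0.18 and -0.33, where all tested genes had -0.00, -0.06 and -0.07. Creb3l2, a membrane-bound transcription factor of the ATF6 type, measured 23.7 and 15.8 FPKM (Laser), 26.7 and 22.5 (PC-La) and 8.11 and 11.3 (SePC-La), with log2 fold changes of -0.95 (adjusted p = 0.376) and -1.27 (adjusted p = 0.126) for SePC-La vs Laser and vs PC-La. Eif2ak3, which encodes PERK, measured 6.23 and 5.68 FPKM, 6.83 and 7.06, and 3.40 and 4.61 in the same order, with log2 fold changes of -0.48 (adjusted p = 0.382) and -0.68 (adjusted p = 0.126). SePC-La values of both genes lay below all 4 others. Mbtps1, the protease that cleaves ATF6, differed by -0.50 (adjusted p = 0.169) and Xbp1 by -0.35 (adjusted p = 0.204) for SePC-La vs PC-La. Creb3l2 kept an unadjusted p under 0.05 with any 1 sample left out, in both comparisons. Eif2ak3 did so against PC-La but not against Laser, where it had -0.43 without Laser replicate 1 and -0.31 without SePC-La replicate 1. Mbtps1 did not pass without PC-La replicate 1 (-0.39), SePC-La replicate 1 (-0.45) or SePC-La replicate 2 (-0.55), nor Xbp1 without PC-La replicate 1 (-0.28), PC-La replicate 2 (-0.42) or SePC-La replicate 1 (-0.22). The count of 4 was 2 without PC-La replicate 1 or SePC-La replicate 1, and the count of 2 was 1 without SePC-La replicate 1. Markers of other cell types also differed for SePC-La vs PC-La. The macrophage list had a median of -0.82, with 4 of 7 lower at an unadjusted p under 0.05 (14.4% of tested genes were). Its genes Cd68 (0.31) and Mrc1 (0.28) were higher and did not pass. The fibroblast list had a median of -1.65, with 2 of 7 higher and none past that threshold in either direction. Jchain, the plasma cell marker that could be tested, had -1.07 (adjusted p = 0.126 in limma). The part of these markers in the values of the ER lists was not tested.

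Other folding genes of the ER (23 tested) were mostly above Laser in PC-La, 22 of 23 with a median of 0.17, though 1 alone passed at an unadjusted p under 0.05 (3.38% of tested genes did upward); leaving out Laser replicate 1 made it 8, and leaving out Laser replicate 2 or either PC-La sample made it 0. For SePC-La vs Laser 1 was higher and 1 lower (4.9% and 7.24% of tested genes, median of the list -0.01), counts that ran from 0 to 2 and from 0 to 3 without 1 sample, and for SePC-La vs PC-La 1 was higher and 5 lower (median -0.25), where 9.91% and 14.4% of tested genes were, so that these counts lay near the share among all genes. The 5 lower genes were 1 without PC-La replicate 1 or PC-La replicate 2, 2 without SePC-La replicate 1 and 8 without SePC-La replicate 2. Groups were apart for 12 of the 23 upward and 0 downward for PC-La vs Laser (20.4% and 21.6% of tested genes). For SePC-La vs Laser it was 4 upward and 6 downward (15% and 25.6%). For SePC-La vs PC-La it was 2 upward and 13 downward (26% and 39.5%). Ero1a, the oxidase that supplies disulfide bonds and a known hypoxia-inducible gene, was the 1 gene of the list that passed upward in both SePC-La comparisons. It measured 68.8 and 35.0 FPKM (Laser), 38.2 and 32.8 (PC-La) and 94.1 and 80.5 (SePC-La), with log2 fold changes of 0.81 (adjusted p = 0.395) and 1.27 (adjusted p = 0.126) for SePC-La vs Laser and vs PC-La. Dnajc3, the BiP cochaperone P58IPK that also restrains PERK, measured 32.2 and 23.6, 32.4 and 35.6, and 17.1 and 21.8 FPKM, with log2 fold changes of -0.49 (adjusted p = 0.395) and -0.78 (adjusted p = 0.126). The differences of Ero1a and Dnajc3 from PC-La passed with any 1 sample left out. Those from Laser did not: Ero1a had 0.33 without Laser replicate 2, 0.70 without SePC-La replicate 1 and 0.92 without SePC-La replicate 2, and Dnajc3 had -0.28 without Laser replicate 1 and -0.33 without SePC-La replicate 1, all with p over 0.05, and Ero1a had 1.29 without Laser replicate 1. Uggt1, which rechecks glycoprotein folding, was higher in PC-La than in Laser by 0.51 (adjusted p = 0.753) and lower in SePC-La than in PC-La by 0.52 (a log2 fold change of -0.52, adjusted p = 0.152), and Dnajc1 differed by -0.44 (adjusted p = 0.16) for SePC-La vs PC-La. Uggt1 against Laser did not pass without Laser replicate 2 (0.29), PC-La replicate 1 (0.52) or PC-La replicate 2 (0.50). For SePC-La vs PC-La, Uggt1 did not pass when any 1 of the 4 samples was left out (-0.52 to -0.51) and Dnajc1 did not without PC-La replicate 1 (-0.42), PC-La replicate 2 (-0.45) or SePC-La replicate 2 (-0.37).

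Of 24 genes of ER-associated degradation and the translocon, none passed for PC-La vs Laser, 2 were lower for SePC-La vs Laser and 5 for SePC-La vs PC-La, with medians of 0.03, -0.13 and -0.17. With 7.24% and 14.4% of all tested genes lower in the latter comparisons, these counts at the threshold lay near the background. In the same 2 comparisons groups were apart downward for 10 and 14 of the 24 genes (25.6% and 39.5% of tested genes). They were apart upward for 1 and 2 (15% and 26%). Without Laser replicate 1, 2 genes were higher for PC-La vs Laser. Sel1l, the adaptor of the HRD1 ligase, measured 17.1 and 15.2 FPKM (Laser), 14.4 and 15.5 (PC-La) and 9.87 and 10.2 (SePC-La), with log2 fold changes of -0.63 (adjusted p = 0.376) and -0.53 (adjusted p = 0.126) for SePC-La vs Laser and vs PC-La. The mannose-trimming genes Edem3 and Edem1 differed by -0.67 (adjusted p = 0.143) and -0.47 (adjusted p = 0.143) for SePC-La vs PC-La. Sec61a1, the channel of the translocon, differed by -0.33 (adjusted p = 0.382) from Laser and -0.28 (adjusted p = 0.192) from PC-La. The difference of Sel1l from Laser passed with any 1 sample left out. Against PC-La, Sel1l did not pass without PC-La replicate 2 (-0.48), Edem3 did not pass without PC-La replicate 1 (-0.64) or SePC-La replicate 1 (-0.56), and Edem1 did not without PC-La replicate 1 (-0.51), PC-La replicate 2 (-0.43) or SePC-La replicate 1 (-0.45). Sec61a1 did not pass against Laser without Laser replicate 1 (-0.31), SePC-La replicate 1 (-0.34) or SePC-La replicate 2 (-0.31), nor against PC-La when any 1 of the 4 samples was left out (-0.31 to -0.25). The count of 5 was 1 without PC-La replicate 1, PC-La replicate 2 or SePC-La replicate 1, and the count of 2 became 5 when Laser replicate 2 was left out and 1 when any of the other 3 samples was.

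Of the 10 genes of the PERK/ATF4 arm, 6 were higher at an unadjusted p under 0.05 for SePC-La vs Laser and 8 for SePC-La vs PC-La, with none lower and medians of 0.72 and 0.78, where 4.9% and 9.91% of tested genes were higher; for PC-La vs Laser 1 was higher and 1 lower (3.38% and 2.4% of tested genes, median of the list -0.08), counts that ran from 0 to 2 and from 0 to 3 without 1 sample. Leaving out 1 sample gave counts of 4 to 8 for SePC-La vs Laser and 5 to 7 for SePC-La vs PC-La, with 5 without PC-La replicate 1 or PC-La replicate 2. Ppp1r15a, which encodes GADD34 and restores translation, measured 9.49 and 9.68 FPKM (Laser), 7.63 and 6.67 (PC-La) and 16.4 and 14.5 (SePC-La). Its log2 fold changes were 0.63 (adjusted p = 0.376) and 1.01 (adjusted p = 0.0868) for SePC-La vs Laser and vs PC-La, both of which passed with any 1 sample left out. Its value of -0.38 (adjusted p = 0.753) for PC-La vs Laser did not pass without Laser replicate 2 (-0.37), PC-La replicate 1 (-0.47) or PC-La replicate 2 (-0.30). Trib3, a pseudokinase induced by ATF4 and CHOP, measured 7.01 and 13.6, 5.84 and 7.64, and 29.6 and 17.4 FPKM, with log2 fold changes of 1.14 (adjusted p = 0.382) and 1.63 (adjusted p = 0.126). Trib3 passed against PC-La with any 1 sample left out, and against Laser did not pass without Laser replicate 1 (0.70) or SePC-La replicate 1 (0.77). Chac1, which degrades glutathione, differed by 1.76 (adjusted p = 0.134) and Asns, asparagine synthetase, by 1.24 (adjusted p = 0.134) for SePC-La vs PC-La; Asns did not pass without PC-La replicate 1 (1.01).

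The transcription factors Atf4, Ddit3, Atf3 and Cebpb, which are counted among these 10 genes, were chosen for description after their values were seen. Atf4 measured 114 and 112 FPKM (Laser), 90.2 and 122 (PC-La) and 201 and 170 (SePC-La), and its log2 fold changes of 0.70 (adjusted p = 0.376) and 0.81 (adjusted p = 0.126) passed with any 1 sample left out. Ddit3, which encodes CHOP, measured 6.31 and 5.06, 6.46 and 5.46, and 13.7 and 8.29 FPKM, with log2 fold changes of 0.81 (adjusted p = 0.376) and 0.75 (adjusted p = 0.152). Without SePC-La replicate 1 these were 0.48 and 0.42, the first was 0.68 without Laser replicate 2 and the second 0.65 without PC-La replicate 2, none of which passed. Atf3 had 0.77 (adjusted p = 0.376) and 0.53 (adjusted p = 0.165), both at an unadjusted p under 0.05. Cebpb had 0.70 (adjusted p = 0.633) and 0.74 (adjusted p = 0.453) and passed in neither comparison. The ERSE was in none of the 10 promoter windows of this list, where 0.113% of all windows held it. It was also in none of the 8 windows of the sensors and transcription factors. ATF4 is also made when kinases other than PERK phosphorylate eIF2α. In the same SePC-La samples the neutrophil marker sums were 344 and 466 FPKM against at most 164 elsewhere, and their part in these values was not tested.

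**Figure D4:**
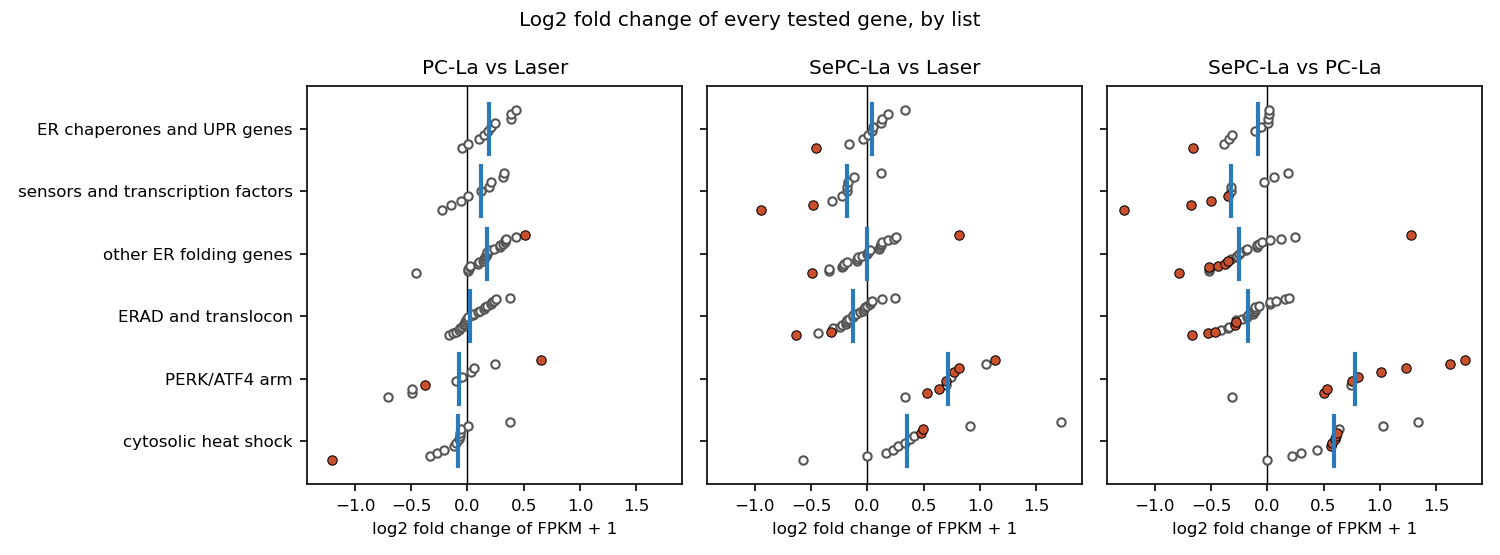
Log2 fold change of FPKM + 1 (horizontal axes) of each tested gene of 6 lists in the 3 comparisons; filled points have an unadjusted p under 0.05 and bars are list medians. In SePC-La vs PC-La the PERK/ATF4 arm has a median of 0.78 and the ER chaperones and UPR genes one of -0.08.

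A list of heat shock genes, mostly cytosolic, served for comparison, since they answer misfolded proteins outside the ER. The list also held Hspd1 and Hspe1 of the mitochondrion. Hspe1 is counted among the higher genes in both SePC-La comparisons below, and Hspd1 in that with PC-La. For SePC-La vs PC-La 5 of 12 were higher at an unadjusted p under 0.05, where 9.91% of tested genes were, among them Hsp90ab1 (0.60, adjusted p = 0.136), Hspd1 of the mitochondrion (0.62, adjusted p = 0.138) and Hsp90aa1 (0.61, adjusted p = 0.2), with a list median of 0.59; the count was 1 without PC-La replicate 1 or SePC-La replicate 1 and 2 without PC-La replicate 2. Without SePC-La replicate 1 the 3 genes had 0.43, 0.43 and 0.39, without PC-La replicate 1 0.63, 0.47 and 0.47, all with p over 0.05, and without PC-La replicate 2 Hsp90ab1 had 0.58 and Hsp90aa1 0.75, which did not pass either. For SePC-La vs Laser 2 were higher (4.9% of tested genes, median of the list 0.35), and leaving out a sample gave 4 (Laser replicate 1), 1 (Laser replicate 2), 0 (SePC-La replicate 1) or 5 (SePC-La replicate 2). Hspb1 was lower in PC-La than in Laser (-1.21, adjusted p = 0.742), at 0.993 and 2.01 FPKM against 3.09 and 6.81, as the 1 gene of the 12 that passed in that comparison (2.4% of tested genes were lower). It did not pass without PC-La replicate 1 (-0.91) and was -0.74 without Laser replicate 2.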

How the data were processed

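The deposited table held 1 FPKM value per gene and sample, computed by the authors. Multiplied by the merged exon lengths of GENCODE M21 (GRCm38), 97.8% of the genes above 0 gave whole reads in all 6 samples (tolerance 0.02 reads), which settled the unit and the totals. The submitters' processing notes name HISAT2 2.0.5, HTSeq 0.9.1, DESeq 1.30.0 and mm9, without roles; the lengths used here are those of GRCm38, and no coordinate of the authors' build is given. Values were used as deposited. Genes whose mean reached 1 FPKM were fitted as log2(FPKM + 1) with limma 3.58.1 in R 4.3.3, with 1 mean for each of the 3 groups, trend and robust moderation (median 6.40 degrees of freedom) and Benjamini-Hochberg adjustment over all 10853 genes. The fit was tested on simulated reads with the same spread setting for every gene and group, and with larger changes than those of the 10 genes. The spread in the data differs between groups, so the simulation cannot show how the fit does there. Levels, profiles and promoter matches were computed in Python 3.11.15. The 10 genes and the other gene lists were chosen with earlier results of these data known. All 10 genes are reported. From each other ER or heat shock list, at most 4 are named by rule, those with the largest absolute log2 fold change among genes at an unadjusted p under 0.05 in any comparison. Further genes named from the lists, such as Hspe1 and the cell type markers, were chosen after their values were seen. Alternatives changed the pseudocount (0.1), the filter (none, or a mean of 5 FPKM), the scaling (median ratio, quantile), the moderation, the samples fitted (the 4 compared, or without 1 sample) and added the replicate number as a block. A voom fit on the recovered reads, and the alternatives for the other lists and for the genes closest in profile, were added after the data were seen. Of the 5 genes closest in profile that the rule names, 4 are given and the other is not reported here.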

Additional observations from a re-analysis of the deposited data

How the results depend on the processing

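With 2 samples a group, the spread between replicates rests on 1 difference per gene and group; counting error was at most 4.65% for the 10 genes. Of 420 alternative values for the 10 genes, 367 kept their direction and their side of an unadjusted p of 0.05, 42 changed sign, 8 newly passed and 3 no longer passed; for the named genes of the other lists, 399 of 473 were unchanged in this sense, 74 no longer passed and none changed sign. The cause of these changes was not tested.

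Genes meeting the study's criterion numbered 140, 74 and 323 for PC-La vs Laser, SePC-La vs Laser and SePC-La vs PC-La. They numbered 68, 46 and 186 with a minimum mean of 5 FPKM, where fewer genes were tested, and 221, 133 and 478 with voom on recovered reads. A pseudocount of 0.1 gave 129 and 488 for SePC-La vs Laser and vs PC-La. Leaving out 1 sample gave 71 to 664, 73 to 253 and 169 to 584. The lone sample left in its group is then assumed to vary like the others. Members at an unadjusted p under 0.05 numbered 0 for PC-La vs Laser and 1 for SePC-La vs Laser whenever both samples of each compared group were fitted. Without 1 sample these counts changed in some fits, as did those of all tested genes. For SePC-La vs PC-La there were 3 with only the 4 samples compared, where 3624 of 10853 tested genes passed. In that fit Dnajb9 had an adjusted p of 0.0495 in limma, and 637 genes had an adjusted p under 0.05. After quantile normalization there were 2, where 2396 of 10853 tested genes passed. The median of the members for PC-La vs Laser was 0.083 to 0.31 without 1 sample. That for SePC-La vs Laser was -0.10 after quantile normalization and -0.015 to 0.19 without 1 sample. For SePC-La vs PC-La it was -0.0073 with median-ratio scaling, -0.20 after quantile normalization and -0.19 to -0.0086 without 1 sample.

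The changes of sign concerned values near 0 and Pdia4 and Pdia3 against Laser. Median-ratio scaling gave -0.0072 for Herpud1 in PC-La vs Laser, 0.032 for Pdia6 in SePC-La vs Laser and 0.022 for Calr in SePC-La vs PC-La. Quantile normalization gave -0.0054 for Herpud1 in PC-La vs Laser. For SePC-La vs Laser it gave -0.084 for Hspa5, -0.14 for Pdia3, -0.12 for Pdia4 and -0.0069 for Herpud1, and for SePC-La vs PC-La -0.13 for Hspa5, -0.093 for Pdia6, -0.028 for Sdf2l1 and -0.0015 for Herpud1. With voom Herpud1 had -6.13e-05, -0.0053 and -0.0053 in the 3 comparisons. Without 1 sample, the values for PC-La vs Laser spanned -0.023 to 0.24 for Hspa5, -0.069 to 0.92 for Pdia4, -0.12 to 0.015 for Pdia6 and -0.090 to 0.091 for Herpud1. For SePC-La vs Laser they spanned -0.013 to 0.25 for Hspa5, -0.016 to 0.27 for Hsp90b1, -0.22 to 0.31 for Pdia3, -0.45 to 0.54 for Pdia4, -0.094 to 0.023 for Pdia6 and -0.13 to 0.14 for Herpud1. For SePC-La vs PC-La they spanned -0.11 to 0.13 for Hspa5, -0.23 to 0.0071 for Hsp90b1, -0.15 to 0.043 for Calr, -0.051 to 0.081 for Pdia6, -0.056 to 0.059 for Sdf2l1 and -0.13 to 0.14 for Herpud1.

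In the other lists, scaling ended some calls: Xbp1 (-0.27) and Sec61a1 (-0.21) against PC-La and Sec61a1 (-0.26) against Laser with median-ratio scaling, which left 3 of the 5 lower degradation genes against PC-La, and Dnajc1 (-0.27) and Hsp90aa1 (0.41) against PC-La and Ero1a (0.70) against Laser after quantile normalization, which also left Hsp90ab1 against PC-La at 0.28, still at an unadjusted p under 0.05. With only the 4 samples compared, 8 other folding genes were lower and 9 heat shock genes higher for SePC-La vs PC-La. In that fit 3624 of 10853 tested genes had an unadjusted p under 0.05 in either direction.

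The labels number the samples of each group without saying that a number is shared. Deviations of same-numbered samples correlated at 0.09, -0.43 and -0.18 between groups, so no pairing was assumed. With the replicate block the criterion was met by 133, 81 and 285 genes and members at an unadjusted p under 0.05 numbered 0, 1 and 1, as without it.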

Other observations

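The exact ERSE defines a group of genes by sequence alone, and its values were looked up after the other results were seen. It was found in the promoter windows of 35 genes, of which 15 were tested, 10 of them outside the set described above. Of those 10 genes, 7 had a positive log2 fold change for PC-La vs Laser (median 0.08), 2 for SePC-La vs Laser (median -0.18) and 1 for SePC-La vs PC-La (median -0.18). At an unadjusted p under 0.05, 0 of the 10 passed for PC-La vs Laser in limma, 1 was lower for SePC-La vs Laser (7.24% of all tested genes were) and 2 for SePC-La vs PC-La (14.4%), counts near those shares. Groups were apart downward for 2, 5 and 5 of the 10 in the same order (21.6%, 25.6% and 39.5% of all tested genes). They were apart upward for 3, 0 and 0 (20.4%, 15% and 26%). Among all tested genes the medians of the log2 fold change were -0.00, -0.06 and -0.07 in the same order. They hold known partners of the chaperones, such as Dnajc3, Creld2, Syvn1 and Ero1b, beside genes with no known role in ER folding, such as Zfp57 and Pan2.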
